A study of Rattus norvegicus with 6 samples.

Results

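The nuclear genes that encode subunits of the mitochondrial respiratory chain and of the ATP synthase were followed in the colonic epithelium of 6 rats. Members were chosen by gene symbol: names beginning Ndufa, Ndufb, Ndufc, Ndufs, Ndufv, Uqcr, Cox4i, Cox5, Cox6, Cox7, Cox8 or Atp5, and Sdha, Sdhb, Sdhc, Sdhd and Cyc1, without the assembly factors (Ndufaf) and without Ndufa10l1. This gave 76 genes, from 78 rows, among 13104 genes and unmatched transcripts in the table. By symbol, 34 belong to complex I, 4 to complex II, 9 to complex III, 13 to complex IV and 16 to complex V. A mean of at least 1 FPKM over the 6 animals was reached by 73 of them, which were tested, and 3 (Cox4i2, Cox8c and Ndufa4l2) stayed below it. The animals were adult male Wistar rats, and the pineal gland, the source of nightly melatonin, had been removed from every one of them, controls included. At the start of subjective night 3 animals (numbered 4 to 6) received melatonin at 1 mg/kg into the peritoneal cavity and 3 (numbered 1 to 3) received the vehicle, 2.5% ethanol in PBS. The inner epithelial layer of the colon was taken 4 h later, so 1 time point and 1 dose were measured. Each library came from 1 animal.

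Levels are FPKM, fragments scaled to transcript length and to the mapped fragments of the library, with mean ± SD over n = 3 animals per group. Each difference is the melatonin mean less the vehicle mean of log2(FPKM + 1), given with the standard error of a limma fit over all 10137 features tested. The smallest step between FPKM values of scarce transcripts put the depth at an estimated 3270000 to 3550000 fragments per library. A tested member rested on a median of 436 estimated reads per library (101 for Ndufa2 to 7532 for Atp5f1b), and at the median the counting error alone is about 0.069 on the log2 scale. All 12 epithelial markers had a row and summed to between 12470 and 14080 FPKM per animal, with Epcam and Cdh1 among them, while 5 smooth muscle markers summed to between 8.37 and 14.3 FPKM. In this bulk tissue fewer cells of a type and less RNA per cell cannot be told apart.

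Oxidative phosphorylation moves electrons from NADH and succinate to oxygen through 4 complexes of the inner mitochondrial membrane, and complex V uses the proton gradient so formed to make ATP. Complex I oxidises NADH, complex II oxidises succinate and is also an enzyme of the citric acid cycle, complex III passes electrons to cytochrome c and complex IV reduces oxygen. Most subunits are nuclear genes whose proteins are imported, while mitochondrial DNA encodes a small set of core subunits of complexes I, III, IV and V. Colonocytes are known for burning butyrate from bacterial fermentation, which makes their mitochondria central to the epithelium's energy supply.

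Subunit mRNAs stood well above the typical gene of this tissue and differed by complex. The median level per tested member was 604 FPKM in complex IV, 294 FPKM in complex V, 211 FPKM in complex II, 181 FPKM in complex III and 106 FPKM in complex I, against 16.3 FPKM over all features tested. Together the members made up 3.32% to 3.77% of the summed FPKM of a library. The highest single level belonged to Atp5f1b, the catalytic beta subunit of the ATP synthase head, at 1308, 1269.6 and 1316 FPKM after vehicle and 1151, 1286 and 1221 FPKM after melatonin. Cox8a, Cox6a1 and Cox5b, small nuclear subunits around the catalytic core of cytochrome c oxidase, followed with means over the 6 animals of 952, 937 and 894 FPKM. These 3 did not separate from each other, since their ranges over animals overlapped. In complex I the order ran from Ndufs4, an accessory subunit of the NADH-oxidising arm, with 25.4, 31.0 and 22.6 FPKM after vehicle and 25.03, 30.9 and 25.9 FPKM after melatonin, to Ndufb4, an accessory subunit of the membrane arm, with 416, 387 and 422 FPKM after vehicle and 359, 355 and 366 FPKM after melatonin. Within complex III the hinge protein Uqcrh stood highest, with 412, 430.1 and 429 FPKM after vehicle and 408, 388 and 437 FPKM after melatonin. Uqcrq, a small subunit of the same complex, stood lowest, with 80.5, 76.3 and 71.9 FPKM after vehicle and 60.3, 72.5 and 67.7 FPKM after melatonin. The 4 genes of complex II lay close together, from Sdha, the flavoprotein that binds succinate, at a mean of 164 FPKM to the membrane anchor Sdhc at 233 FPKM.

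**Figure D1:**
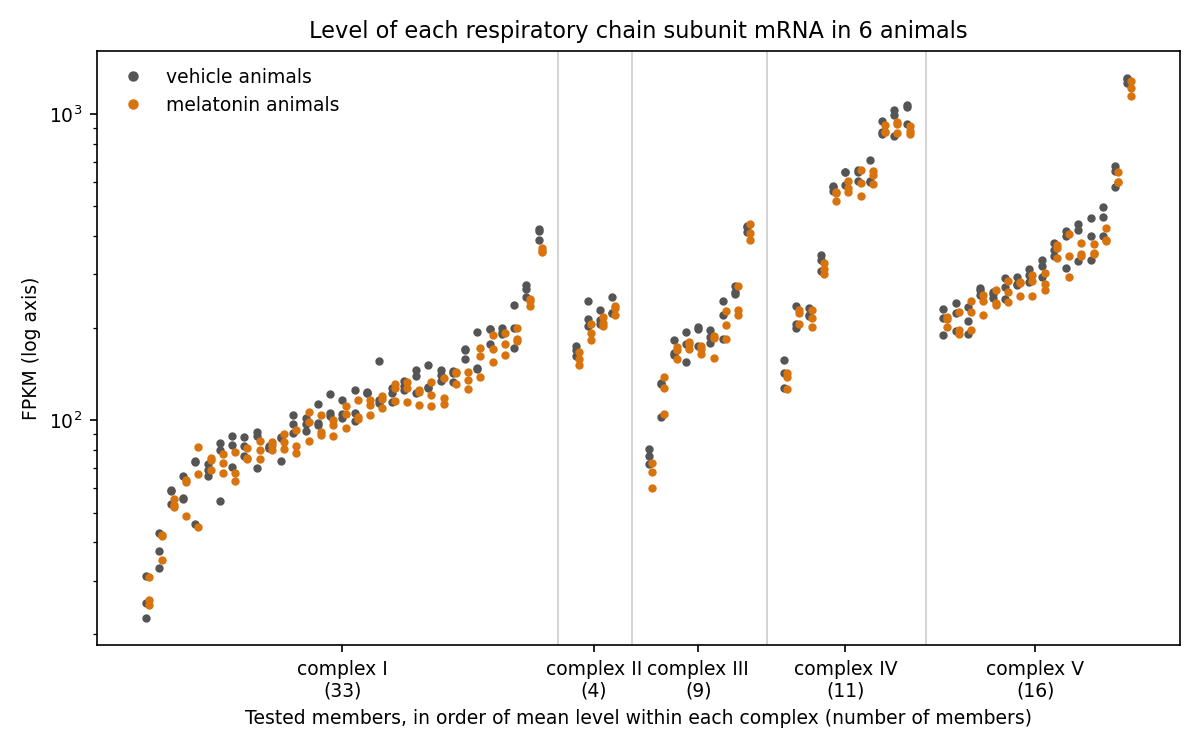
FPKM (log axis) of each of the 73 tested members in the 3 vehicle animals (grey) and 3 melatonin animals (orange), in order of mean level within complexes I to V. Complex IV members lie mostly above complex I members, and the points of both groups lie close together for most genes.

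For Cox4i, Cox8 and Ndufa4 a second paralog had a row, and nearly all mRNA was in the widely expressed form. Cox4i1, the general form of the largest nuclear subunit of complex IV, was at 649.9, 589 and 647 FPKM after vehicle and 556, 575 and 606 FPKM after melatonin, while its lung and hypoxia form Cox4i2 was listed at 0 in 5 animals and at 0.86 FPKM in melatonin animal 4. Cox8c, the testis form of Cox8, was listed at 0 in 5 animals and at 0.56 FPKM in melatonin animal 4. Ndufa4l2, known as a hypoxia-induced relative of Ndufa4, was listed at 0 in 5 animals and at 0.31 FPKM in melatonin animal 5, beside 82.5, 81.0 and 81.1 FPKM after vehicle and 83.4, 80.2 and 85.3 FPKM after melatonin for Ndufa4. Ndufa4 carries a complex I name, but its protein is known as a subunit of complex IV. Cox6a2, Cox7a1 and Cox8b, the heart and skeletal muscle forms, and Cox6b2, a testis form, were not found among the rows used here. Of the Cox7a family, Cox7a2 was at 207, 199.9 and 237 FPKM after vehicle and 225, 229 and 206 FPKM after melatonin. Cox7a2l, known as a factor that joins complexes III and IV into supercomplexes, was at 128, 143 and 157 FPKM after vehicle and 143, 127 and 139 FPKM after melatonin, which was 35.6% to 41.7% of the sum of both. Atp5mc1 and Atp5mc2 encode the same mature subunit of the proton-driven c ring, and Atp5mc1 made up 50.5% to 54.7% of their sum in every animal. A further row, not matched to a symbol and so outside the members, is named in the deposited table as mitochondrial ATP synthase lipid-binding protein and was at 94.8, 86.5 and 91.7 FPKM after vehicle and 68.8, 88.7 and 76.3 FPKM after melatonin. 2 other unmatched rows carry the protein names of the complex I subunits alpha subcomplex 8 and iron-sulfur protein 6. They were at 118, 111 and 119 FPKM after vehicle and 102, 112 and 109 FPKM after melatonin for the first, and at 89.6, 65.8 and 95.1 FPKM after vehicle and 79.1, 83.0 and 70.9 FPKM after melatonin for the second. In the 3 unmatched rows the melatonin mean was below the vehicle mean, and the groups overlapped in the rows of the c subunit, with 88.7 against 86.5 FPKM, alpha subcomplex 8 and iron-sulfur protein 6.

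The start regions of these genes carry letters that recur across complexes. RefSeq promoter windows (GRCr8, 250 bases before to 50 after the start) were matched to 67 of the 76 members, 65 of them tested, and those with no matched entry include Atp5pd, Cox4i2, Cox6a1, Cox6c, Cyc1, Ndufb9, Uqcr11 and Uqcrb. The motifs were searched on both strands. The NRF1 palindrome, the core that nuclear respiratory factor NRF1 is known to bind, shown in capitals below, was in 4 of 65 member windows (6.15%), against 1.95% of the 7880 windows of features tested and 0.932% of all 27457 windows. With its central A left free, which includes the first motif, it was in 12 of 65 (18.5%), against 10.6% and 4.71%. CCGGAAG, a core of the ETS family that includes GABPA, was in 21 (32.3%), against 19.7% and 9.22%. AAGGTCA, a site of the estrogen-related and other nuclear receptors, was in 9 (13.8%), against 2.83% and 4.37%. AAGATGGC, a core of YY1, was in 13 (20.0%), against 5.86% and 3.44%, and with 1 base less at each end in 21 (32.3%), against 16.6% and 18.9%. A match describes the letters only. The 4 windows with the full NRF1 palindrome are shown over 60 bases upstream of the start, 5′ to 3′ on the gene's strand, with the palindrome in capitals (overlapping copies run on in Ndufa11, a membrane-arm subunit of complex I).
Ndufa11 (chr9:1637495-1637554, + strand): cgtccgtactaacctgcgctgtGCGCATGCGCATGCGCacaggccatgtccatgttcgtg
Atp5mc2 (chr7:135678240-135678299, - strand): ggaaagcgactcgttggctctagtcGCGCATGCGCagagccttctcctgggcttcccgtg
Atp5me (chr14:1464759-1464818, + strand): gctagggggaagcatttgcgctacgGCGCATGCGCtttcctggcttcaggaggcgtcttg
Atp5po (chr11:44657508-44657567, - strand): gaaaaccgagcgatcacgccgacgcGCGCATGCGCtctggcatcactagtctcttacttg

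The YY1 letters sat near or after the start in most of the members that held them. In those members the motif began between 4 bases before the start (Cox8a) and position 37 after it (Atp5mf). In 11 of 65 member windows (16.9%) AAGATGGC began between 4 bases before the start and the end of the window, against 3.43% of the windows of features tested and 1.75% of all windows, a position chosen after the matches were seen. Of these sites, 7 from all 5 complexes are printed over 30 bases with the motif in capitals, because they include Ndufs7, Ndufa9 and Cox8a, whose levels are described below. In Cox8a the motif is on the other strand and reads as its reverse complement.
Ndufs7 (chr7:10110476-10110505, - strand): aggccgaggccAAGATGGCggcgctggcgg
Ndufa9 (chr4:161374142-161374171, - strand): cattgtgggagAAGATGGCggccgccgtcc
Ndufs4 (chr2:47794892-47794921, - strand): ttgcccacaggAAGATGGCggcggtctcaa
Sdhc (chr13:86098004-86098033, - strand): ggccggaactcAAGATGGCtgcgctcttgc
Uqcrc1 (chr8:118468211-118468240, + strand): acggaagttagAAGATGGCggcgtccgcag
Cox8a (chr1:213833609-213833638, - strand): cggctattgcgGCCATCTTgacttcctgac
Atp5po (chr11:44657464-44657493, - strand): ctgcccgggaaAAGATGGCcgcaccagcaa

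The comparison of melatonin with vehicle asks whether the hormone alters these mRNAs within hours. No member passed the test: 0 of 73 had a limma adjusted p under 0.05 (percent of all features called 0%), and the smallest limma adjusted p among members was 0.972. Most members lay slightly lower after melatonin. The log2 difference was negative for 62 of 73 members (84.9%), beside 54.0% of all features, and its median was -0.08 over the members and -0.02 over all features. At an unadjusted p under 0.05 there was 1 member in either direction (3.75% of all features), Ndufs7. It was lower (1.92% of all features were lower by that rule), and 0 members were higher (1.82% of all features). All 3 melatonin animals lay below all 3 vehicle animals for 8 of the 73 members, beside 4.33% of all features, and above them for 0 members beside 4.04%. Among features with a mean of at least 100 FPKM these shares were 4.74% below and 1.4% above. With 3 animals against 3, a two-sided exact permutation test of 1 gene cannot go below p = 0.1. The data bound the differences closely: the 95% limma interval lay within a 1.5-fold change in either direction for all 73 members and within 1.3-fold for 51.

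**Figure D2:**
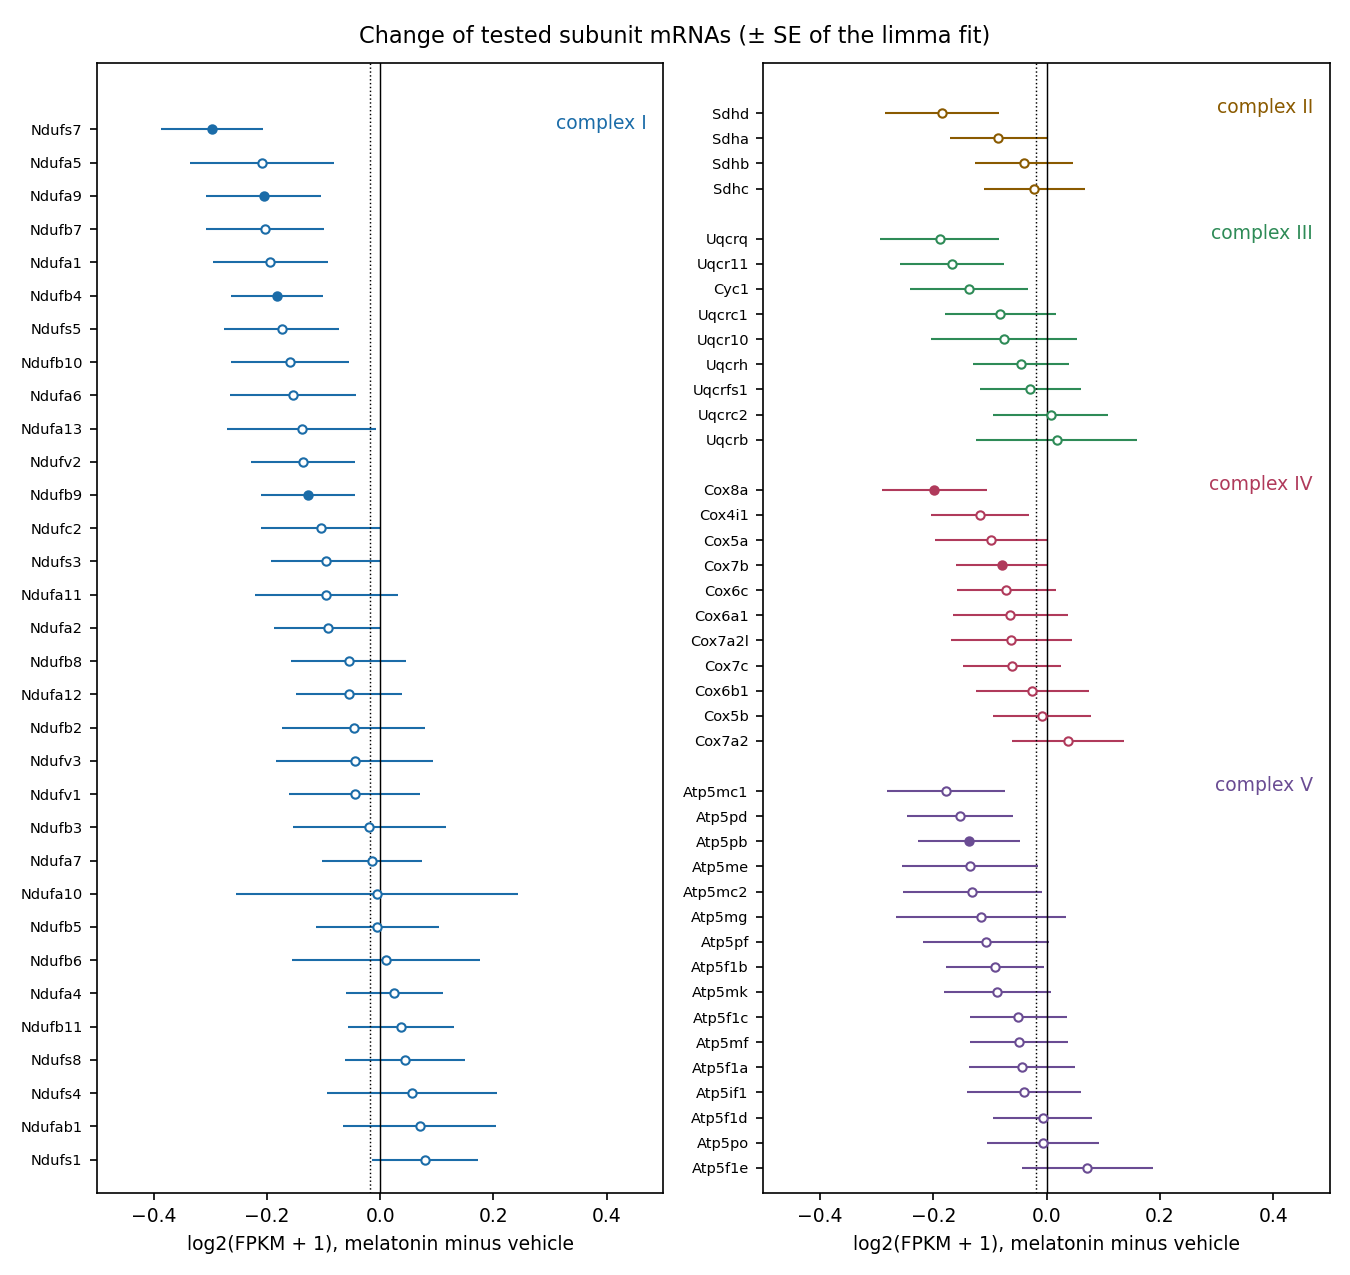
Difference of the tested members between melatonin and vehicle on the log2(FPKM + 1) scale, ± standard error of the limma fit, by complex, with 1 member not drawn. Filled points are members with every melatonin animal below every vehicle animal, the dotted line is the median of all features (-0.02), and most points lie left of 0.

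Counts over the members depended on single animals and on scaling. Without vehicle animal 2 the members below all remaining vehicle animals numbered 26 (35.6%, beside 8.34% of all features), and 7 had an unadjusted p under 0.05 beside 2.69% of all features. Without melatonin animal 5 they numbered 24 (32.9%, beside 8.17%), and 3 had an unadjusted p under 0.05 beside 2.65%. Without melatonin animal 4 the share of members below (15.1%) was under that of all features (18.1%), the medians were -0.05 and -0.05, and 2 members had an unadjusted p under 0.05, beside 11.4% of all features. With median-of-ratios scaling 55 members were negative (75.3%, beside 49.9%), 5 lay below (6.85%, beside 4.66%) and the medians were -0.06 over the members and 0.00 over all features. TPM rescaling, which gives every library the same sum, went the other way. There 62 members were negative (84.9%, beside 54.6%) and 10 lay below (13.7%, beside 4.00%).

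In complex I the groups were apart for 5 of 33 tested members (15.2%, beside 4.33% of all features), and 26 differences were negative (78.8%, beside 54.0%). Ndufs7, a core subunit that carries the last iron-sulfur cluster before ubiquinone, was at 171, 159 and 170.1 FPKM in vehicle animals 1, 2 and 3 and 144, 136 and 127 FPKM in melatonin animals 4, 5 and 6. Every melatonin animal was below every vehicle animal, and the means were 167 ± 6.81 FPKM after vehicle and 136 ± 8.72 FPKM after melatonin (log2 difference -0.30 ± 0.09, limma adjusted p = 0.972). Its start region is among the YY1 sites printed above, as are those of Ndufs4, Sdhc, Uqcrc1 and Atp5po, whose groups overlapped. The groups also overlapped in the members with this motif that are not printed, Ndufa2, Ndufa6, Ndufb8, Atp5mf, Atp5me and Atp5pf. A link between these letters and the levels was not tested. Ndufb4 was at 416, 387 and 422 FPKM after vehicle and 359, 355 and 366 FPKM after melatonin, so the highest melatonin animal lay below the lowest vehicle animal (log2 difference -0.18 ± 0.08). Ndufa9, an accessory subunit at the junction of the arms, was at 122, 104 and 106 FPKM after vehicle and 96.9, 100.2 and 88.8 FPKM after melatonin, with melatonin animal 5 just below vehicle animal 2 (log2 difference -0.21 ± 0.10). Ndufb9, a membrane-arm subunit, was at 268, 254 and 277 FPKM after vehicle and 249, 236 and 245 FPKM after melatonin, and the groups were again apart (log2 difference -0.13 ± 0.08).

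The other 28 tested members of complex I had overlapping groups. Of the 7 nuclear core subunits, 5 had a negative difference and 2 a positive one, with a median of -0.10. The positive ones were Ndufs1, which holds several iron-sulfur clusters of the NADH arm, at 72.1, 66.0 and 68.9 FPKM after vehicle and 74.5, 75.5 and 68.9 FPKM after melatonin, and the iron-sulfur subunit Ndufs8 at 88.0, 73.6 and 87.4 FPKM after vehicle and 90.2, 80.8 and 85.2 FPKM after melatonin. The NADH-binding subunit Ndufv1 was at 106, 99.9 and 126 FPKM after vehicle and 101, 117 and 103 FPKM after melatonin, and neither group stood apart. Of the 26 other tested members with complex I names, Ndufa4 included, 21 had a negative difference, with a median of -0.08. Over the 33 members the differences ran from -0.30 (Ndufs7) to 0.08 (Ndufs1), with a median of -0.09. Summed over complex I the level was 4109.7, 3894 and 4226 FPKM in vehicle animals 1, 2 and 3 and 3706, 3861 and 3787 FPKM in melatonin animals 4, 5 and 6. The melatonin sum was 92.8% of the vehicle sum, and no melatonin animal reached the lowest vehicle animal. The groups overlapped with median-of-ratios scaling (94.2%) and stayed apart with TPM rescaling (92.7%).

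Complexes II and III had no member whose groups were apart, and most of their differences were small. In complex II all 4 differences were negative, beside 54.0% of all features. Sdhd, a membrane anchor, was at 245, 204 and 215 FPKM after vehicle and 194, 207 and 183 FPKM after melatonin, with melatonin animal 5 above vehicle animal 2 (log2 difference -0.18 ± 0.10). The flavoprotein Sdha was at 174, 162 and 169.9 FPKM after vehicle and 168, 158 and 152 FPKM after melatonin (log2 difference -0.09 ± 0.09), and the iron-sulfur subunit Sdhb at 213, 206 and 229 FPKM after vehicle and 203, 218 and 209 FPKM after melatonin (log2 difference -0.04 ± 0.09). Sdhc was at 225, 225 and 254 FPKM after vehicle and 233, 237 and 222 FPKM after melatonin, so the groups overlapped for each of the 4 genes. In complex III 7 of 9 differences were negative (77.8%, beside 54.0%). Cytochrome c1, the product of Cyc1, passes electrons to cytochrome c, and its mRNA was at 259, 262 and 274 FPKM after vehicle and 229, 276 and 221 FPKM after melatonin, with melatonin animal 5 above every vehicle animal (log2 difference -0.14 ± 0.10). Uqcrq, at the values given above, had melatonin animal 5 above vehicle animal 3 (log2 difference -0.19 ± 0.10). Uqcr11, a small accessory subunit, was at 199, 175 and 202 FPKM after vehicle and 175, 172 and 165 FPKM after melatonin, with melatonin animal 4 just above vehicle animal 2 (log2 difference -0.17 ± 0.09). Uqcrb, a ubiquinone-binding subunit, was at 131, 103 and 132 FPKM after vehicle and 105, 128 and 138 FPKM after melatonin, and its difference was 0.02 with wide overlap. The Rieske iron-sulfur protein Uqcrfs1 (171 ± 10.3 FPKM after vehicle and 167 ± 7.33 FPKM after melatonin) and the core proteins Uqcrc1 (188 ± 9.40 FPKM after vehicle and 178 ± 15.7 FPKM after melatonin) and Uqcrc2 (176 ± 19.3 FPKM after vehicle and 176 ± 4.71 FPKM after melatonin) differed by less than the spread between animals.

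In complex IV 10 of 11 differences were negative (90.9%, beside 54.0% of all features), and 2 members had separate groups (18.2%, beside 4.33%). Cox8a, a small membrane subunit whose start region is printed above, was at 1071, 928 and 1055 FPKM in vehicle animals 1, 2 and 3 and 884, 912 and 861 FPKM in melatonin animals 4, 5 and 6. Every melatonin animal lay below every vehicle animal (log2 difference -0.20 ± 0.09, limma adjusted p = 0.972). Cox7b, another small membrane subunit, was at 583, 562 and 577 FPKM after vehicle and 519, 557 and 554 FPKM after melatonin, with melatonin animal 5 only a little below vehicle animal 2 (log2 difference -0.08 ± 0.08). The groups overlapped for the others. Cox5a, on the matrix side, was at 659, 606 and 648 FPKM after vehicle and 539, 657 and 596 FPKM after melatonin, so melatonin animal 5 lay between vehicle animals 3 and 1 (log2 difference -0.10 ± 0.10). Cox4i1, at the values given above, had a log2 difference -0.12 ± 0.09. Cox6a1 was at 994, 851 and 1031 FPKM after vehicle and 868, 931 and 944 FPKM after melatonin, and Cox6b1, which faces the intermembrane space, at 602, 605 and 709.7 FPKM after vehicle and 593, 635 and 652 FPKM after melatonin. For both genes the melatonin animals fell inside the vehicle range except melatonin animal 4 for Cox6b1. Cox5b, the zinc-binding subunit, was at 864, 873 and 952 FPKM after vehicle and 923, 874 and 875 FPKM after melatonin and showed the smallest difference of the complex (-0.01). Cox7a2 had the positive difference, 0.04.

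In complex V 15 of 16 differences were negative (93.8%, beside 54.0% of all features), and 1 member had separate groups (6.25%, near the 4.33% of all features). Atp5pb, the b subunit of the stalk that holds the head still, was at 270.2, 257 and 267 FPKM after vehicle and 257, 245 and 221 FPKM after melatonin, with melatonin animal 4 just below vehicle animal 2 (log2 difference -0.14 ± 0.09). The 4 stalk genes had a median of -0.12, and Atp5pd among them was at 318, 293 and 334 FPKM after vehicle and 268, 302 and 279.9 FPKM after melatonin (log2 difference -0.15 ± 0.09). Atp5po, the stalk subunit that confers oligomycin sensitivity, was at 216, 191 and 232 FPKM after vehicle and 218, 202 and 215 FPKM after melatonin, with no difference beyond the spread (-0.01). Atp5pf, coupling factor 6, was at 241, 197 and 225 FPKM after vehicle and 198, 226 and 191 FPKM after melatonin. Both c-ring genes had negative differences, with Atp5mc1 at 460.4, 402 and 498 FPKM after vehicle and 385, 426 and 387 FPKM after melatonin (log2 difference -0.18 ± 0.10) and Atp5mc2 at 400.1, 333 and 457 FPKM after vehicle and 377, 353 and 349 FPKM after melatonin (log2 difference -0.13 ± 0.12). In each the groups overlapped because vehicle animal 2 lay low. The 5 genes of the F1 head had a median of -0.04. Atp5f1a, its alpha subunit, was at 651, 579 and 678 FPKM after vehicle and 599, 649 and 601 FPKM after melatonin (log2 difference -0.04 ± 0.09), and Atp5f1b had a log2 difference -0.09 ± 0.09. Atp5f1e, the epsilon subunit of the same head, had the positive difference of the complex (212 ± 21.0 FPKM after vehicle and 224 ± 24.1 FPKM after melatonin). Atp5if1, the inhibitor that stops ATP hydrolysis, was at 273, 249 and 291 FPKM after vehicle and 262, 285 and 244 FPKM after melatonin, and its groups overlapped.

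**Figure D3:**
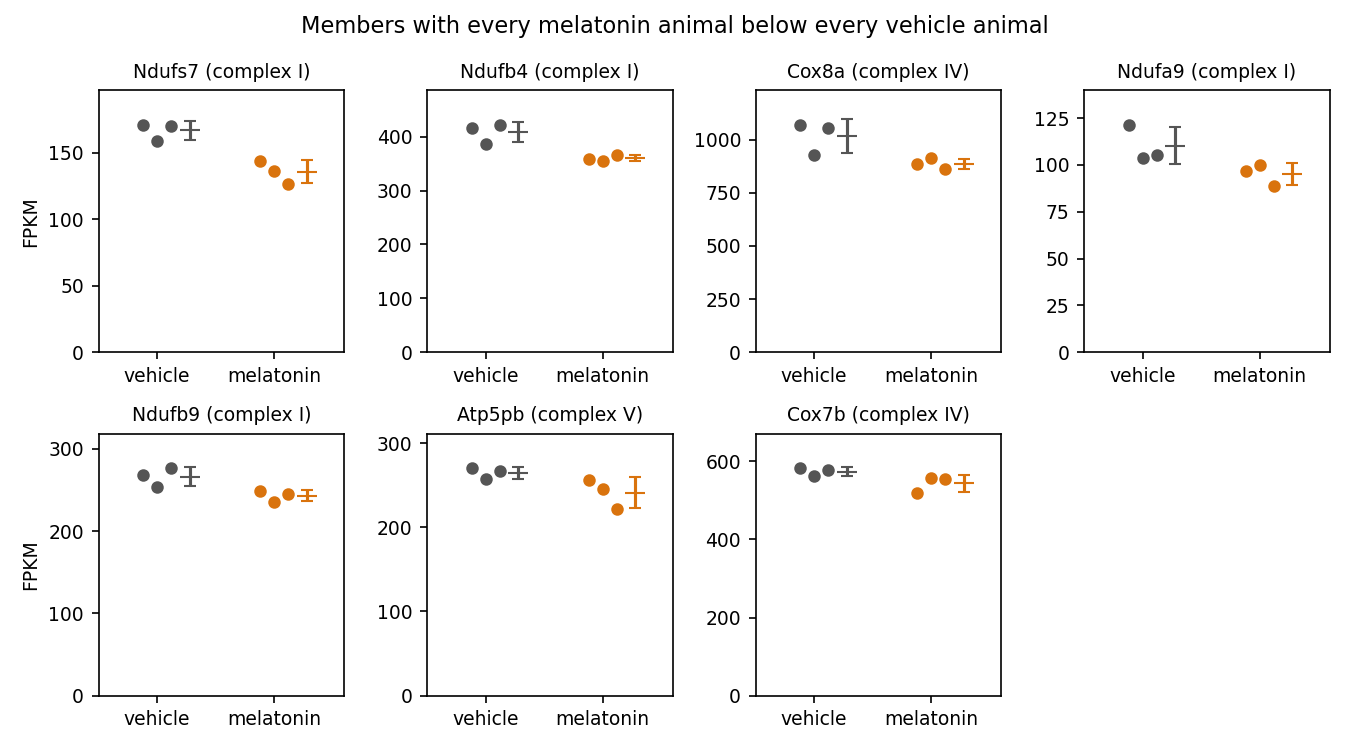
FPKM of 7 of the 8 members whose melatonin animals (orange, 4 to 6 from left to right) all lay below their vehicle animals (grey, 1 to 3), with mean ± SD (n = 3) beside the points and axes from 0. The gaps are small beside the levels: Ndufs7 spans 126.60 to 171.03 FPKM and Cox7b 519.14 to 582.53 FPKM.

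By animal, the lowest vehicle values overlapped the melatonin group. The median difference from the vehicle mean over all members was 0.03, -0.07 and 0.05 in vehicle animals 1, 2 and 3 and -0.12, -0.02 and -0.10 in melatonin animals 4, 5 and 6. Vehicle animal 2 therefore lay below melatonin animal 5, and 60 of 73 members were below the vehicle mean in it (82.2%, beside 46.5% of all features). In melatonin animals 4, 5 and 6 the members below the vehicle mean numbered 61 (83.6%, beside 42.1%), 46 (63.0%, beside 50.1%) and 53 (72.6%, beside 62.1%). Each complex in vehicle animal 2 was negative, from -0.06 in complex II to -0.12 in complex V. Melatonin animal 4 ranged from -0.05 in complex II to -0.21 in complex III, and melatonin animal 6 from -0.05 in complex IV to -0.15 in complex V. Over all features the medians were 0.04, 0.00 and -0.09 in melatonin animals 4, 5 and 6, so melatonin animal 6 was about as low in the whole table as in the members. Among the 928 features with a mean of at least 100 FPKM the medians were -0.03, 0.01 and -0.01 in these animals. Features of that level thus did not share the low median of melatonin animal 6. In melatonin animal 4 the members were low while the table as a whole was not. Below all 3 vehicle animals lay 39 members in melatonin animal 4 (53.4%, beside 17.6% of all features), 17 in animal 5 (23.3%, beside 26.7%) and 36 in animal 6 (49.3%, beside 41.0%). The members' share was thus far above that of all features in melatonin animal 4 only, a little above it in animal 6 and under it in animal 5. Above all 3 vehicle animals lay 5 members in animal 4 (6.85%, beside 28.7%), 4 in animal 5 (5.48%, beside 26.1%) and 5 in animal 6 (6.85%, beside 21.4%).

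**Figure D4:**
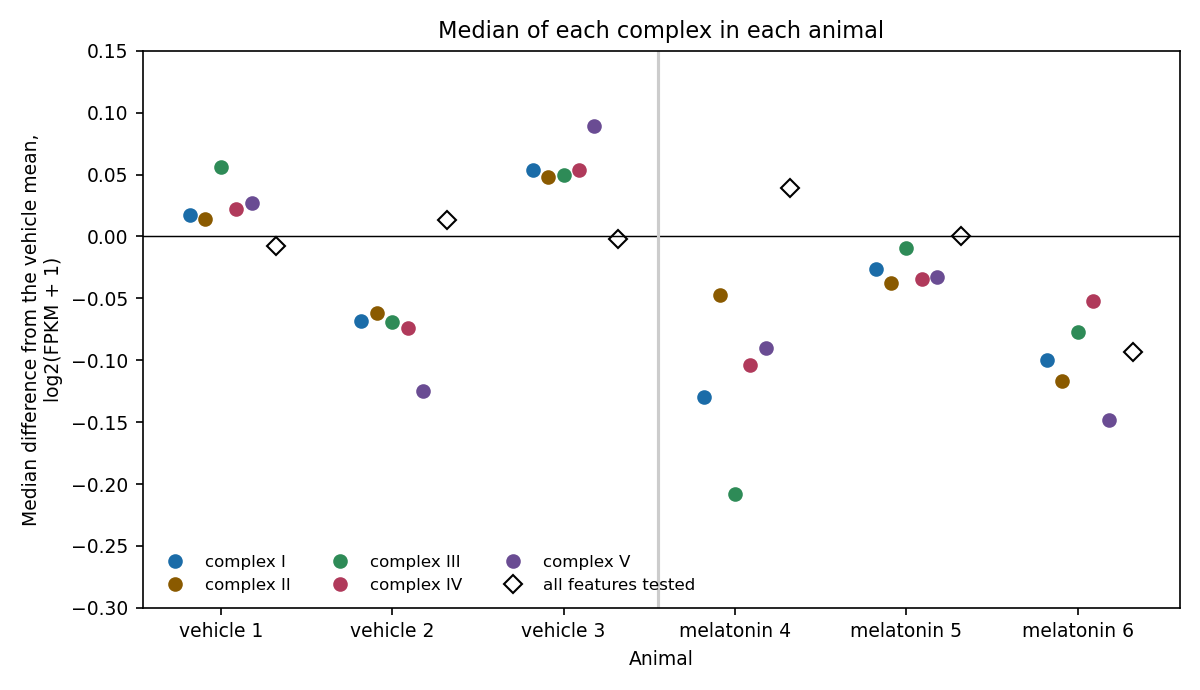
Median difference from the vehicle mean on the log2(FPKM + 1) scale for the tested members of each complex (filled circles) and for all features tested (open diamonds), by animal. The 5 complexes spread most in melatonin 4 (-0.05 to -0.21), vehicle 2 lies below melatonin 5, and the diamond of melatonin 6 (-0.09) lies among its complexes.

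The summed levels repeated this pattern. Complex II summed to 858, 797 and 868 FPKM in vehicle animals 1, 2 and 3 and 798, 820.4 and 765 FPKM in melatonin animals 4, 5 and 6. Complex III summed to 1875, 1729 and 1889 FPKM in vehicle animals 1, 2 and 3 and 1666, 1799 and 1758 FPKM in melatonin animals 4, 5 and 6. Complex IV summed to 6323, 5888 and 6580.5 FPKM in vehicle animals 1, 2 and 3 and 5781, 6053 and 5936 FPKM in melatonin animals 4, 5 and 6. In these 3 complexes the groups overlapped. Vehicle animal 2 was below melatonin animal 5 in each, below animal 4 in complex II and below animal 6 in complexes III and IV. Complex V summed to 6425, 5785 and 6548 FPKM in vehicle animals 1, 2 and 3 and 5769.7, 6167 and 5738 FPKM in melatonin animals 4, 5 and 6. Its groups overlapped too, with vehicle animal 2 below melatonin animal 5 only. The melatonin sum was 94.5% of the vehicle sum in complex II, 95.1% in III, 94.6% in IV and 94.2% in V, so the 5 complexes differed from each other by less than the animals of 1 group did. The typical residual SD per member was 0.11 on the log2 scale, beside 0.21 over all features. Member transcripts were short, with a median of 683 bases beside 2110 over all features. Features whose longest transcript was under 1000 bases had medians of 0.02, -0.04 and 0.01 in the vehicle animals and -0.04, 0.00 and -0.05 in the melatonin animals. Vehicle animal 2 and melatonin animals 4 and 6 were thus the low ones among short features too, by smaller amounts than among the members. The part of transcript length in the members' pattern was not tested.

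Rows of single transcripts, or of a near-identical copy, differed from their sums in 3 genes. Uqcr11 has 2 rows. The minor one was listed at 9.75, 4.09 and 10.6 FPKM after vehicle and 0, 3.14 and 3.52 FPKM after melatonin, and in the authors' deposited table it had the highest score of any member row (0.705, log2 ratio -1.87). The major Uqcr11 row was at 189, 171 and 191 FPKM after vehicle and 175, 168 and 161 FPKM after melatonin. How fragments were divided between 2 transcripts of nearly equal length is uncertain. Ndufv3, an accessory subunit of the NADH arm, also has 2 rows. Its long transcript (1536 bases) was at 40.4, 47.2 and 64.4 FPKM after vehicle and 40.5, 38.6 and 37.7 FPKM after melatonin, with the groups touching at 40.5 against 40.4. The short Ndufv3 transcript (486 bases) was at 155, 100.03 and 83.5 FPKM after vehicle and 122, 99.6 and 135 FPKM after melatonin, with full overlap. Ndufa10, an accessory subunit of complex I, stood at separate levels that did not follow treatment, at 46.0, 73.1 and 73.8 FPKM after vehicle and 44.8, 82.0 and 66.6 FPKM after melatonin. Its near-identical copy Ndufa10l1, left out of the members, was at 31.1, 0 and 0 FPKM after vehicle and 30.7, 0 and 0 FPKM after melatonin, so it was listed above 0 in the same animals in which Ndufa10 was low, vehicle 1 and melatonin 4. The sum of both genes was 77.1, 73.1 and 73.8 FPKM after vehicle and 75.5, 82.0 and 66.6 FPKM after melatonin, with no separate levels left. Of the members, 38 have at least 1 annotated pseudogene, and their reads are not certain to be their own.

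No gene on the lists of other mitochondrial energy genes passed the limma test. The counts of negative differences on these lists are to be read beside 54.0% of all features, whose median was -0.02. None of the 13 mitochondrially encoded subunits was among the rows used here, so the nuclear subunits could not be set beside them. Of 13 citric acid cycle enzymes, 8 had a negative difference and 0 passed the limma adjusted 0.05, with a median of -0.03. Idh3a, the catalytic subunit of isocitrate dehydrogenase, was at 165, 157 and 177 FPKM after vehicle and 170.5, 180.5 and 190.0 FPKM after melatonin (log2 difference 0.12 ± 0.09), and the groups overlapped. Of 50 assembly factors 41 had a row, 25 of them negative, with a median of -0.04 and 0 past the limma adjusted 0.05. Ndufaf3, which helps to build complex I, has 2 rows that sum to 16.0, 19.2 and 18.0 FPKM after vehicle and 15.1, 11.5 and 11.5 FPKM after melatonin (log2 difference -0.46 ± 0.15, limma adjusted p = 0.972), with every melatonin animal below every vehicle animal. Ttc19, which clears fragments from complex III, was at 13.1, 15.5 and 18.7 FPKM after vehicle and 19.0, 18.6 and 19.4 FPKM after melatonin. Of 15 measured genes of electron carriers and coenzyme Q synthesis, 5 were negative and 10 positive, with a median of 0.03 and 0 past the limma adjusted 0.05. Coq6, a coenzyme Q hydroxylase, was at 25.3, 24.4 and 23.1 FPKM after vehicle and 18.8, 21.6 and 21.5 FPKM after melatonin, with the groups apart. Coq10a, a coenzyme Q binding protein, was at 2.68, 3.90 and 4.97 FPKM after vehicle and 7.10, 4.89 and 3.79 FPKM after melatonin, where the groups overlapped.

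Genes that keep and express mitochondrial DNA had a median of -0.04 over 15 members, 9 negative and 0 past the limma adjusted 0.05. Mtif2, an initiation factor of mitochondrial translation, was at 10.3, 11.2 and 10.7 FPKM after vehicle and 8.76, 7.01 and 8.16 FPKM after melatonin, with every melatonin animal below every vehicle animal (log2 difference -0.39 ± 0.15, limma adjusted p = 0.972). Ssbp1, which coats single-stranded mitochondrial DNA, was at 27.3, 37.7 and 25.6 FPKM after vehicle and 21.1, 20.5 and 25.9 FPKM after melatonin, where melatonin animal 6 overlapped vehicle animal 3. The 9 nuclear regulators had a median of -0.02, with 5 negative and 0 past the limma adjusted 0.05. Ppargc1b, a coactivator of mitochondrial genes, was at 7.42, 8.87 and 9.39 FPKM after vehicle and 12.6, 10.2 and 9.28 FPKM after melatonin. Ppara, a receptor that drives fatty acid oxidation, was at 3.66, 3.99 and 3.98 FPKM after vehicle and 4.04, 1.68 and 2.25 FPKM after melatonin, low in melatonin animals 5 and 6, while melatonin animal 4 was the highest of the 6. Of the 6 carriers and porins 5 were tested, 4 of them negative, with a median of -0.07 and 0 past the limma adjusted 0.05. The ADP/ATP carrier Slc25a5 was at 1298, 1128 and 1333 FPKM after vehicle and 1136, 1149 and 1092 FPKM after melatonin, with vehicle animal 2 inside the melatonin range. The phosphate carrier Slc25a3 was at 625, 530.0 and 594 FPKM after vehicle and 502, 561 and 568 FPKM after melatonin, where again vehicle animal 2 overlapped the melatonin group.

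Markers of cells outside the epithelium were low apart from red cells, and no marker with a row was at 0 in all 6 animals. T and NK cell markers (5 genes) summed to 1.89 to 9.24 FPKM after vehicle and to 5.47, 11.9 and 19.7 FPKM in melatonin animals 4, 5 and 6. Fibroblast markers (5 genes) summed to at most 4.02 FPKM and macrophage markers (3 genes) to at most 6.39 FPKM in any animal. Goblet markers, of which 3 of 4 had a row, summed to 4282, 4644 and 5435 FPKM after vehicle and to 4918, 3973 and 3833 FPKM after melatonin. Endothelial markers summed to at most 4.27 FPKM, the 1 measured B and plasma cell marker reached at most 3.51 FPKM, and the 1 measured nerve marker was listed at 0 in 5 animals. Red cell markers (3 genes) summed to 108.8, 84.0 and 128.8 FPKM after vehicle and to 84.8, 54.5 and 95.8 FPKM after melatonin. Vehicle animal 2 was lowest of its group, as in the respiratory members. Melatonin animal 5 was lowest of its group too, whereas in the summed respiratory members it was highest. The part of these cells in the members' differences was not tested.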

How the data were processed

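Polyadenylated RNA was sequenced from 6 animals, and the RNA integrity numbers were 9.0 to 9.7, per the labels' protocols. The authors deposited FPKM values per RefSeq transcript and animal, rounded to 2 decimals, with their group means, a log2 ratio of those means and a score headed as a probability, per the file headers. BWA 0.7.10-r789, the genome build rn6, Bowtie2 and RSEM appear in the submitters' processing notes without a role. The annotation release is not stated in the labels. No strand marking is described. Here 12883 of 13647 rows were matched by accession to RefSeq symbols (GRCr8, for names and promoter windows), 764 stayed unmatched, and rows of 1 gene were summed. Features with a mean of at least 1 FPKM were tested with limma 3.58.1 (R 4.3.3, mean trend, two-sided) on log2(FPKM + 1), which understates changes of low genes, with Benjamini-Hochberg adjustment at 0.05 over 10137 features. On simulated data for this comparison (10032 features on average, 200 changed per run, independent noise) limma recovered 84.8% of the genes given a log2 change of 1 and 99.6% of those given 2, with 5.2% false calls. These changes were placed only in features above a set mean level. Both sizes exceeded every member difference, so the recovery does not bear on differences as small as those of the members. For depth, values in short transcripts with 33 bases taken off their length lay within 0.1 of whole reads in 84.7% to 88.6%. A depth 2 times as large would give whole reads as well, so the lower one was taken. RSEM, where used, divides reads between similar transcripts. Named genes were the 2 highest, 2 lowest and 3 of smallest p per complex, members with separate groups, paralogs and up to 2 genes per pathway list. A few genes that the rule names are not reported here. Others in the text were added after their values were seen. The members and lists were chosen with earlier results of these data known.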

Additional observations from a re-analysis of the deposited data

How the results depend on the processing

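No paired analysis was possible because the vehicle animals carry the numbers 1 to 3 and the melatonin animals 4 to 6, so no number is shared. No member passed the adjusted threshold under any of the 13 alternatives. Over all features the count past it was 0, and it was 1 with no filter, 1 without the mean trend and 0 to 4 with 1 animal left out. Members at an unadjusted p under 0.05 numbered 3 of 75 with unsummed transcripts, beside 3.89% of all features. With 1 animal left out they numbered 1 to 7, beside 2.51% to 11.4% of all features. Members below all vehicle animals numbered 5 with median-of-ratios scaling (6.85%, beside 4.66% of all features) and 10 with TPM rescaling (13.7%, beside 4.00%). With 1 animal left out they numbered 9 to 26 (12.3% to 35.6%), while the share of all features also rose, to between 6.30% and 18.1%. Members above all numbered 0 to 2, for which the share of all features was not taken. The median of every complex kept its sign and moved by less than the spread between vehicle animals in every alternative. That spread was about as large as the medians of complexes II to V, or larger, so this limit was wide. With 1 animal left out the median ranged from -0.098 to -0.035 in complex IV and from -0.117 to -0.042 in complex V. With motifs shortened by 1 base at each end, 7 member windows held the NRF1 palindrome (10.8%, beside 3.77% of tested windows and 1.81% of all), 23 its form with a free base (35.4%, beside 17.6% and 8.23%) and 21 the YY1 core (32.3%, beside 16.6% and 18.9%). The members' share was thus a smaller multiple of both backgrounds with the shorter YY1 letters. Signs of single genes turned in some alternatives. With median-of-ratios scaling Atp5po was at 0.014, Cox5b at 0.012 and Ndufa10 at 0.014. With 1 animal left out the log2 differences ranged, for Atp5f1a from -0.109 to 0.005, for Atp5if1 from -0.098 to 0.015, for Atp5po from -0.082 to 0.057, for Cox5b from -0.034 to 0.036, for Cox6b1 from -0.066 to 0.053, for Cox7a2 from -0.011 to 0.111, for Cox7a2l from -0.139 to 0.010, for Ndufa10 from -0.227 to 0.230, for Ndufa11 from -0.210 to 0.026, for Ndufs4 from -0.044 to 0.176, for Ndufs8 from -0.039 to 0.088, for Ndufv1 from -0.115 to 0.051, for Ndufv3 from -0.113 to 0.088, for Sdhb from -0.074 to 0.003, for Sdhc from -0.051 to 0.035, for Uqcrb from -0.102 to 0.130, for Uqcrc2 from -0.078 to 0.080, for Uqcrfs1 from -0.058 to 0.020. The cause of these turns was not tested. The median standard error of a member was 0.099 on the log2 scale, which limits what 3 animals per group can show.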
